A study of Homo sapiens with 8 samples.

Results

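The 52 genes described here encode proteins of the cytosolic ribosome, the machine that translates messenger RNA (mRNA) outside mitochondria. They were chosen by symbol: RPL or RPS, then digits, then nothing or the letter A or X, together with RPLP0, RPLP1, RPLP2 and RPSA, counting only probe sets that the platform annotation assigns to a single gene. Of 54613 probe sets that are not controls, 111 met this rule. They cover 52 of 19775 annotated genes, of which 32 encode proteins of the large (60S) subunit and 20 proteins of the small (40S) subunit. A further 64 probe sets name a ribosomal protein gene together with another gene, 56 of them with a small nucleolar RNA that lies inside the gene. For that reason 15 ribosomal protein genes, among them RPL5, RPL10, RPL13A and RPS26, were not analysed here, and RPLP0, RPSA and RPS27A were not analysed either. The shared probe sets also name 7 of the 52 members, and their signals there were not used.

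The cells were Saos-2, an established human osteosarcoma line that the labels give as p53 null. Untreated cells (3 arrays, replicates 1, 2 and 3) were compared with cells given a compound labelled Prima for 6 h (3 arrays, replicates 1, 2 and 3) or 12 h (2 arrays, replicates 1 and 3), with no dose in the labels. The question was how transcription across the genome responds to the compound when p53 is missing. Values are MAS5 signals, a linear intensity that summarises the probes of a probe set and is scaled to the same trimmed mean on every array (100.01), so a level on one array is relative to the rest of that array. Of 8 osteoblast lineage markers, 8 were measurable, with a summed signal of 6767 to 8359 on untreated, 6258 to 9146 on 6 h and 8327 to 8539 on 12 h arrays. RUNX2, COL1A1 and SPARC carried most of the sum, at 1620 to 3704 on untreated arrays. ALPL lay at 131.1 to 285.9 there, and SP7, COL1A2, IBSP and SPP1 were dim, at 18.91 to 105. Epithelial, haematopoietic and endothelial markers had 1 measurable gene of 4 in each list, the others being under the filter on low signal or not analysed here. Their summed signals over all 8 arrays stayed within 170.5 to 272.7, 20.75 to 176.2 and 22.2 to 276.9. EPCAM, the measurable epithelial marker, was at 244.6, 26 and 197.4 on untreated replicates 1, 2 and 3.

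A ribosome needs 1 copy of nearly every ribosomal protein together with ribosomal RNA, and cells make these proteins in step with growth. The mRNAs of ribosomal proteins in vertebrates carry a 5′ terminal oligopyrimidine (TOP) sequence, a cytosine at the cap followed by a run of C and T, through which mTOR and LARP1 set how strongly they are translated. RPL5 and RPL11, together with 5S ribosomal RNA, can bind MDM2 when ribosome assembly is disturbed and so stabilise p53, a route that has no p53 to act on in a p53 null cell. These arrays measure amounts of mRNA and say nothing of its translation. In such bulk RNA, fewer cells with a transcript and less of it per cell cannot be told apart.

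The start sites of the genes show what the members share in sequence. RefSeq (GRCh38.p14) gave start sites for 46 of the 52 members, 53 starts in all. Each line gives 15 bases before the start and 15 from it on, in the direction of transcription. For members with several starts (6 in all, RPL11 and RPL19 among them), the start with the longest run was taken. Capitals mark an uninterrupted run of C and T that begins with C at the first transcribed base and is at least 5 bases long. A line with no capitals has no such run. The genes shown are those on which the results turn.
RPLP2, chr11:809952-809981, plus strand: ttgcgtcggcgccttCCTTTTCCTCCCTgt
RPL11, chr1:23691791-23691820, plus strand: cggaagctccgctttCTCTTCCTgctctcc
RPL35A, chr3:197950175-197950204, plus strand: cggcggggcctcgtcCTTCTCTTaccgcca
RPL36, chr19:5690280-5690309, plus strand: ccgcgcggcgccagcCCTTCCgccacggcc
RPL36A, chrX:101390996-101391025, plus strand: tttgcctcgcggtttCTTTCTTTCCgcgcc
RPL39, chrX:119791616-119791645, minus strand: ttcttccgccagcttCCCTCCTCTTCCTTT
RPL41, chr12:56116618-56116647, plus strand: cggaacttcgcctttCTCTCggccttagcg
RPS6, chr9:19380222-19380251, minus strand: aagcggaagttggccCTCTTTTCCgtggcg
RPS23, chr5:82278340-82278369, minus strand: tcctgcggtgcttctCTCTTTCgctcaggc
RPS24, chr10:78033848-78033877, plus strand: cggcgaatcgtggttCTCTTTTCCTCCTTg
RPL19, chr17:39200268-39200297, plus strand: tgggctctccccttcgcagataatgggagg
RPS4X, chrX:72277234-72277263, minus strand: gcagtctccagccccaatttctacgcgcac

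Such a run began at the first base of 34 of the 53 starts (64.2%), against 4.07% of all 35116 RefSeq starts in the table. By gene, 34 of 46 members (73.9%) had at least 1 such start, against 5.14% of 27305 genes. Runs were 5 to 19 bases long with a median of 8, and RPL39 had the run of 19. A start position can be off by a few bases, and a run beginning within 10 bases of the start was found for 42 of 46 members (91.3%), against 38.4% of genes. The letters TTCCGG, searched on both strands in the 250 bases before the start, were found at 25 of 53 member starts (47.2%) and at 14.5% of all starts. TATAAA in the last 40 bases before the start was found at 1 of 53 member starts (1.89%) and at 2.44% of all starts. These matches describe the letters and do not show that a factor binds there.

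Ribosomal protein probe sets gave some of the highest signals on every array. The median of the 52 genes, each represented by its brightest probe set, lay at the 99.76th to 99.80th percentile of all probe sets, and 48 or 49 of the 52 were in the top 1% on each array. Median member signal was 4654, 4562 and 6439 on untreated replicates 1, 2 and 3. It was 5221, 5066 and 6947 on 6 h replicates 1, 2 and 3, and 5132 and 6378 on 12 h replicates 1 and 3. The replicate 3 array was thus the highest of its group each time, and the groups overlapped. As group means these medians came to 5218 ± 1058 (SD, n = 3) untreated, 5745 ± 1044 (SD, n = 3) at 6 h and 5755 ± 881 (SD, n = 2) at 12 h.

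**Figure D1:**
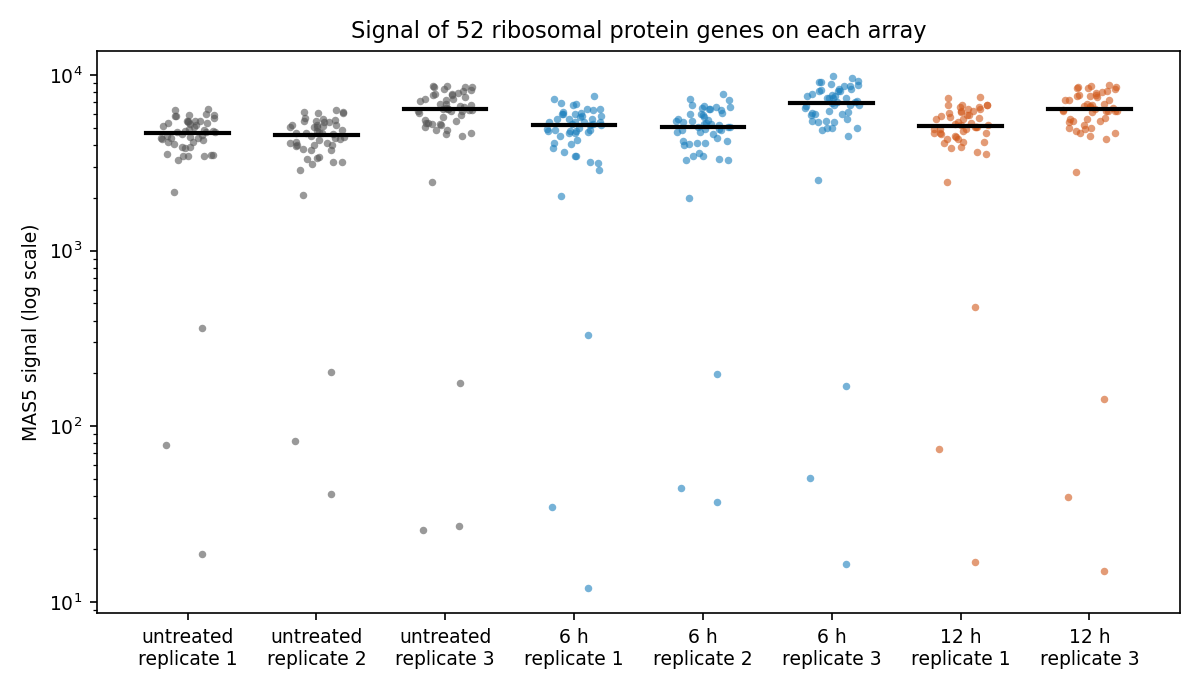
MAS5 signal (log axis) of the 52 ribosomal protein genes on each of the 8 arrays, with 1 point per gene and a bar at the median. Of the 52 genes, 49 have a mean signal of at least 2298, and the 3 that lie far below are RPL27A, RPLP2 and RPL36A.

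Member medians differed more between replicate 3 and the other numbers than between groups. Replicates 1 and 2 were close to each other, with log2 member medians of 12.184 and 12.155 untreated and 12.35 and 12.307 at 6 h. On the log2 scale the member median of replicate 3 exceeded that of replicates 1 and 2 by 0.47 and 0.50 in untreated cells and by 0.41 and 0.46 at 6 h, and exceeded that of replicate 1 by 0.31 at 12 h. For 49 of the 52 members the replicate 3 array was the highest of its group in all 3 groups, as it was for 16% of all genes tested. The signal bounding the top 1% of all probe sets was also higher on replicate 3. It was 2702 untreated, 2796 at 6 h and 2763 at 12 h, against 2019 to 2488 on the other arrays. The replicate 2 arrays stood apart in another way: their median signal over all probe sets was 50.8 and 47.5, against 14.2 to 24.9 on the 6 other arrays. No more than 0.0623% and 0.0714% of their values were at the floor of 2.386 set under all signals, against 6.27% to 20.8% on the others. There is no 12 h array of that number. RNA integrity, read from ACTB as the 3′ signal over the 5′ signal, gave 2.29 on 12 h replicate 1 and 1.125 to 1.73 elsewhere. For GAPDH the same ratio varied less. Its lowest value was 0.927, in untreated replicate 1, and its highest was 1.038, in 12 h replicate 1. The part of these differences in the results below was not tested beyond the values given.

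At 6 h most members had slightly higher mean signals than in untreated cells, and none passed the test. Of the 52, 45 had a log2 difference above 0, as did 53% of the 12063 genes tested. The median difference was 0.14 (1.10-fold), with the central members between 0.07 and 0.18 (quartiles), and the median over all genes was 0.022. Large and small subunit genes were alike in this, with 27 of 32 above 0 (median 0.12) and 18 of 20 above 0 (median 0.15). The median standard error of a member was 0.23, larger than the difference itself, and the smallest p in limma was 0.285 (adjusted p = 0.9999). Over the whole table limma called 0 genes (0%) at an adjusted p under 0.05, with 79 (0.655%) at an unadjusted p under 0.05, of which 0 were members. No member had every 6 h array above every untreated array or every one below, as 2.03% and 1.51% of genes did.

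The signal of RPS23, a protein of the decoding centre of the small subunit, was 6401, 6348 and 8569 on the untreated arrays, 7580, 7788 and 9621 at 6 h and 7477 and 8725 at 12 h, in order of replicate number. Each treated array was above the untreated array of its own number, yet untreated replicate 3 was above 6 h replicates 1 and 2, so the groups overlapped. The 6 h difference was 0.24 ± 0.21 (SE) on the log2 scale and the 12 h difference 0.20 ± 0.24. RPS24, a gene mutated in some patients with Diamond-Blackfan anaemia, had signals of 4139, 4680 and 6211 untreated, 5023, 5573 and 6988 at 6 h and 4963 and 6432 at 12 h. It showed the same order within each number, with a 6 h difference of 0.23 ± 0.23. RPS4X, the X-linked form of a small subunit protein, was at 5329, 4695 and 7316 untreated, 7321, 5435 and 7767 at 6 h and 5845 and 7208 at 12 h. Its 6 h difference of 0.25 ± 0.24 was the largest among the members and came mostly from replicate 1, where the pair differed by 0.46 against 0.21 and 0.09 in replicates 2 and 3. The start of RPS4X carries no run, as printed above, while those of RPS23 and RPS24 do.

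Arrays of the same number tended to deviate together from their group means, and a paired reading was made on that basis. The labels do not say what a number marks. In a limma fit with the replicate number as a block, the 6 h median remained 0.14, the median standard error of a member fell to 0.081 and 12 of 52 members were higher at an unadjusted p under 0.05. Among all genes 2.48% were higher at that level. None of the 12 passed adjustment: the smallest p, for RPS23, was 0.00979, with an adjusted p of 0.8313 in limma. Lower signals at an unadjusted p under 0.05 were found for 0 of 52 members and 1.61% of genes. Counted by pairs, 34 of 52 members were higher at 6 h in all 3 pairs, against 13.6% of all genes. RPL27A and RPL36A were lower in all 3, against 10.4% of genes. The pair medians were 0.14, 0.17 and 0.10 for replicates 1, 2 and 3.

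Quantile normalization, which gives every array the same distribution of signals, took most of this away. Since 48 or 49 of the 52 members lay in the top 1% of every array, it removes most of a shift they share with the other probe sets there, whatever its source. Over a mean signal of 3000 there were 66 ribosomal probe sets and 206 others, so a shift of the members alone could change their ranks. How much of such a shift this step removes was not tested. The normalized values therefore cannot tell whether a shift shared by the brightest probe sets came with the treatment. After this step 12 of 52 members were higher in all 3 pairs, against 12.3% of genes, and 6 were lower, against 11.5%. The pair medians became 0.011, 0 and 0.009, and the median over all 6 h and untreated arrays 0.011. With the block on quantile-normalized values, 0 of 52 members had an unadjusted p under 0.05, against 4% of genes. Without the block, the 6 h median of the deposited values also varied with single arrays. It was 0.059, 0.027 and 0.29 without untreated replicate 1, 2 or 3. Leaving out 6 h replicate 1, 2 or 3 gave 0.194, 0.193 and -0.010. Each such fit leaves the replicate numbers unequal between groups, so part of the difference between numbers enters these values.

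**Figure D2:**
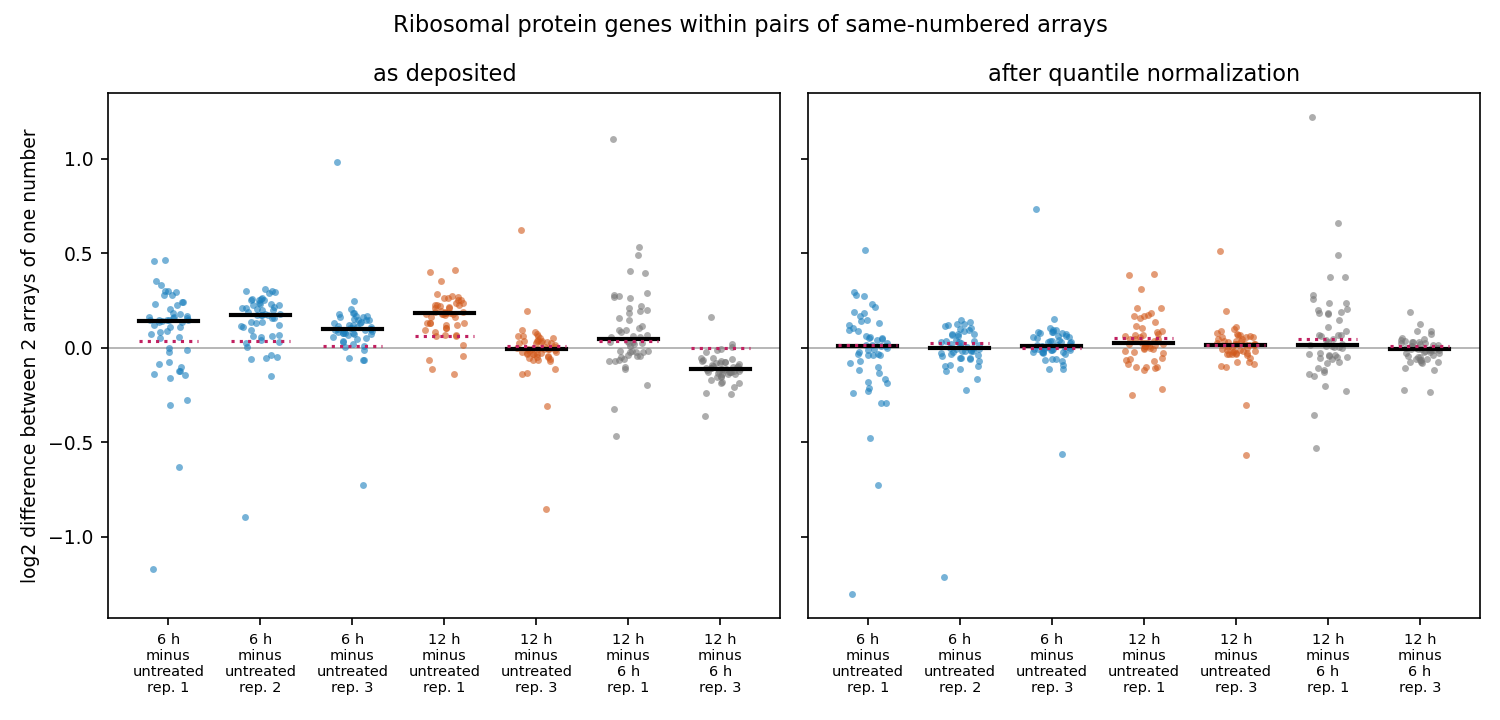
Log2 difference between 2 arrays of the same replicate number for the 52 ribosomal protein genes, as deposited (left) and after quantile normalization (right). Points are genes, black bars member medians and dotted bars medians of all genes tested; at left the 6 h pairs have medians of 0.10 to 0.17 and the 12 h pairs 0.18 and -0.007, and at right every member median lies between 0 and 0.024 except the -0.009 of 12 h minus 6 h in replicate 3.

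At 12 h the members again lay a little above the untreated cells, and again none passed. Log2 differences were above 0 for 50 of 52 members, against 59.9% of all genes, with a median of 0.19 (1.14-fold), quartiles of 0.15 and 0.20 and a median over all genes of 0.083. All 20 small subunit genes were above 0 (median 0.19), as were 30 of the 32 large subunit genes (median 0.18). The smallest p in limma was 0.30 (adjusted p = 0.9999), and limma called 0 genes (0%) in this comparison, with 74 (0.613%) at an unadjusted p under 0.05, of which 0 were members. Both treated groups were set against the same untreated arrays, so the 6 h and 12 h differences are not separate observations.

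The 2 pairs at 12 h differed from each other, and untreated replicate 2 has no 12 h partner. In replicate 1, 48 of 52 members were above 0 with a median of 0.18, against 57.2% of all genes with a median of 0.063. In replicate 3 it was 22 of 52 with a median of -0.007, against 51.8% of all genes with a median of 0.010. Higher in both pairs were 20 of 52 members, against 34% of genes, and lower in both were RPL11 and RPL36A, against 25% of genes. With the replicate block 48 of 52 were above 0, against 57.4% of genes, with a median of 0.10. At an unadjusted p under 0.05 in that fit 0 of 52 members were higher and 0 lower, against 1.28% and 0.887% of genes. After quantile normalization the median was 0.021, under the 0.063 of all genes, and with the block 0 of 52 members had an unadjusted p under 0.05, against 1.25% of genes. As at 6 h, that step removes most of a shift that the members share with other bright probe sets. Without the block, the 12 h median was 0.106, 0.091 and 0.34 when untreated replicate 1, 2 or 3 was left out. It was 0.32 without 12 h replicate 1 and 0.036 without 12 h replicate 3. Of these fits, only that without untreated replicate 2 held the same numbers in both groups. Leaving out both replicate 2 arrays gave 0.10 at 6 h (42 of 52 above 0) and 0.091 at 12 h (48 of 52).

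**Figure D3:**
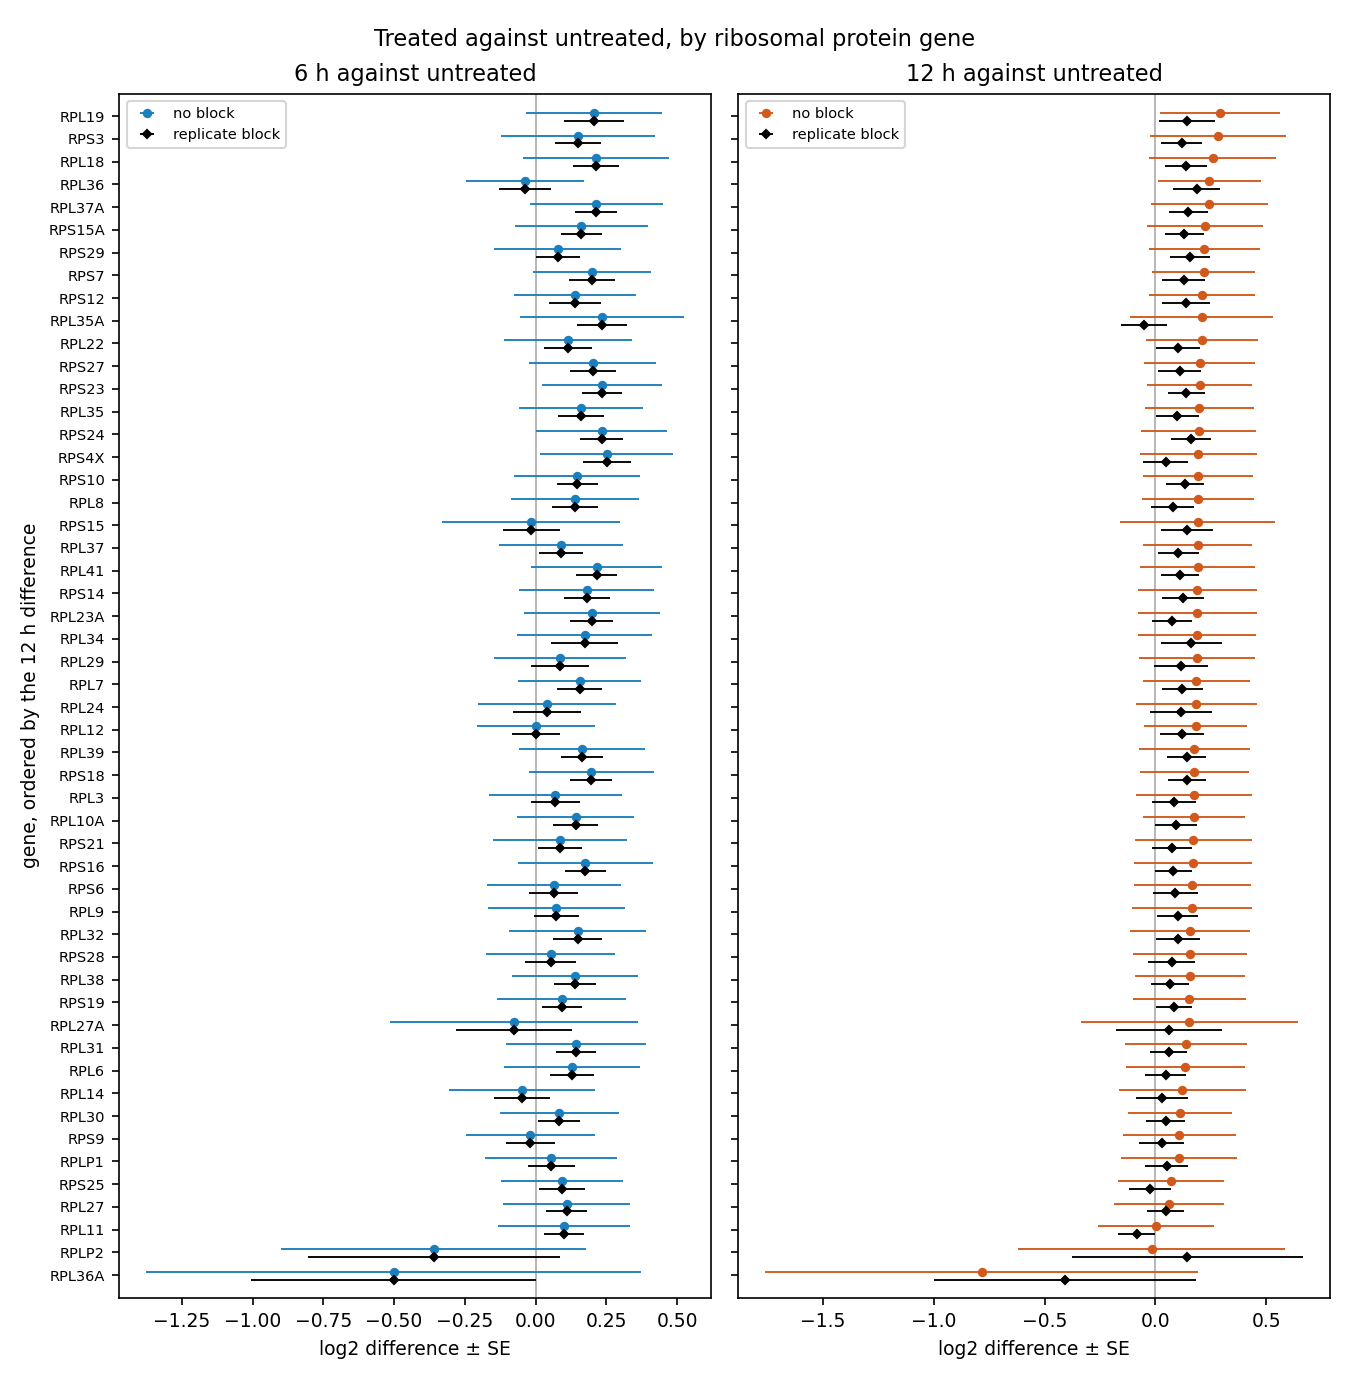
Log2 difference from untreated cells (± SE, limma) of each of the 52 genes at 6 h (left) and 12 h (right), without and with the replicate number as a block, in the order of the 12 h difference. At 6 h, 45 genes lie above 0 and at 12 h 50 do, RPL36A is lowest at -0.50 and -0.78, and the median SE at 6 h is 0.23 without the block and 0.081 with it.

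Among the large subunit genes, RPL19, a protein that takes part in a bridge between the subunits, had the largest 12 h difference without the block. Its signals were 3472, 3115 and 5182 untreated, 4795, 3585 and 4999 at 6 h and 4430 and 4951 at 12 h. In replicate 1 both treated arrays were above the untreated array, and in replicate 3 both were below it. The 12 h difference was 0.29 ± 0.27 without the block and 0.14 ± 0.13 with it. In the blocked fit the largest was that of RPL36 (0.19). RPL18 (0.26 ± 0.29) and RPL37A (0.24 ± 0.26) followed RPL19 without the block, and gave 0.14 and 0.15 with it. Among small subunit genes RPS3, which lies at the entry of the mRNA channel, differed by 0.28 ± 0.31, or 0.12 with the block. RPS3 had signals of 4550, 3748 and 6651 untreated, 4734, 4400 and 7446 at 6 h and 5092 and 6807 at 12 h. Each treated array of RPS3 was above the untreated array of its number, but untreated replicate 3 was above both the 6 h and the 12 h arrays of the other numbers.

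RPL36 was the only member whose 12 h arrays both exceeded every untreated array, a pattern shown by 9.6% of all genes. Its signals were 2160, 2075 and 2458 untreated, 2036, 1990 and 2515 at 6 h and 2465 and 2813 at 12 h. The separation was narrow, since 12 h replicate 1 lay just above untreated replicate 3. The difference was -0.04 ± 0.21 at 6 h and 0.24 ± 0.23 at 12 h, or 0.19 ± 0.11 with the block (limma, unadjusted p = 0.114, adjusted p = 0.9998).

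RPL11, the MDM2-binding partner of RPL5, had signals of 4833, 4840 and 6779 untreated, 5385, 5081 and 7136 at 6 h and 4693 and 6271 at 12 h. It was above the untreated array of its number in all 3 pairs at 6 h and below it in both pairs at 12 h. The 6 h difference was 0.10 ± 0.23 and the 12 h difference 0.003 ± 0.26, or -0.09 ± 0.08 with the block. Between 12 h and 6 h RPL11 differed by -0.10 ± 0.26, and by -0.19 ± 0.08 with the block (limma, unadjusted p = 0.0552, adjusted p = 0.9721). RPL5 was not analysed here, so its partner cannot be set beside it.

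The 12 h and 6 h arrays were also set against each other. Log2 differences were above 0 for 38 of 52, against 57.2% of all genes, with a median of 0.041, and limma called 0 genes (0%), with 88 (0.73%) at an unadjusted p under 0.05, of which 0 were members. No member had all its 12 h arrays above or all below all its 6 h arrays, as 7.1% and 4.5% of genes did. The pairs went different ways: in replicate 1, 33 of 52 members were above 0 (median 0.046), against 52.4% of all genes (median 0.034), and in replicate 3 it was 3 of 52 (median -0.112), against 50% of all genes (median 0). With the block 16 of 52 were above 0, against 53.1% of genes, and the median was -0.033. The smallest p with the block belonged to RPL35A, another gene mutated in some cases of Diamond-Blackfan anaemia. Its signals were 4409, 2896 and 5335 untreated, 5638, 3296 and 5977 at 6 h and 4078 and 5466 at 12 h. The 12 h arrays of RPL35A were thus below the 6 h arrays of their number, by 0.47 in replicate 1 and 0.13 in replicate 3. The blocked difference was -0.29 ± 0.10 (limma, unadjusted p = 0.0236, adjusted p = 0.9721). At an unadjusted p under 0.05 in that fit, 1 of 52 members and 1.24% of genes were lower at 12 h than at 6 h, and 0 members and 1.23% of genes were higher. After quantile normalization RPL35A was again the 1 member at that level, against 1.65% of genes. In both pairs 18 of 52 members were lower, against 23.6% of genes, and RPL36 and RPS12 were higher, against 26%. In fits with no block, the median was 0.17 without 6 h replicate 3, and -0.029 and -0.020 without 6 h replicate 1 or 2. It was 0.185 without 12 h replicate 1 and -0.095 without 12 h replicate 3. Of these fits, only that without 6 h replicate 2 held the same numbers in both groups.

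Other members with well known roles followed the general pattern. RPS6, the small subunit protein phosphorylated by S6 kinase downstream of mTOR, was at 6028, 5548 and 8131 untreated, 5615, 6362 and 8688 at 6 h and 6545 and 8084 at 12 h, with differences of 0.06 ± 0.24 and 0.17 ± 0.26. RPS19, the gene most often mutated in Diamond-Blackfan anaemia, was at 5152, 5183 and 7098 untreated, 5423, 5597 and 7572 at 6 h and 5640 and 7234 at 12 h. Its differences were 0.09 ± 0.23 and 0.15 ± 0.26, smaller than the distance between untreated replicates 2 and 3. RPS14, whose loss is a feature of the 5q- syndrome, differed by 0.18 ± 0.24 at 6 h and 0.19 ± 0.27 at 12 h. RPL3, close to the peptidyl transferase centre, differed by 0.07 ± 0.24 and 0.18 ± 0.26. RPL41, which encodes a very short peptide, and RPL39, which lines the exit tunnel, differed by 0.22 ± 0.23 and 0.16 ± 0.22 at 6 h. RPLP1, 1 of the acidic stalk proteins that recruit elongation factors, differed by 0.06 ± 0.23 at 6 h and 0.11 ± 0.26 at 12 h.

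Most members varied together from array to array. Relative to the member median of each array, the log2 signal of RPL38 had an SD of 0.023 over the 8 arrays, RPS10 and RPS19 each 0.040 and RPS15A 0.041. RPL38 itself was at 4715, 4458 and 6330 untreated, 5225, 5051 and 6741 at 6 h and 5172 and 6238 at 12 h, which is nearly the member median of each array. At the other end stood RPL27A (0.79), RPLP2 (0.78), RPL36A (0.75) and, well below them, RPS15 (0.26). RPS15 was at 3497, 4336 and 6301 untreated, 3167, 4186 and 6987 at 6 h and 4167 and 6524 at 12 h, so its replicate 1 and replicate 3 arrays lay further apart than the member medians did.

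The 3 members with the largest spread are those whose brightest probe set, among those assigned to a single gene, had a mean signal under 1000. RPL36A had signals of 18.6, 40.8 and 27.0 untreated, 12.0, 36.8 and 16.3 at 6 h and 16.9 and 14.95 at 12 h, with each treated array below the untreated array of its number. Both its 12 h arrays were below every untreated array, as for 4.89% of genes. Its differences were the lowest of all members, -0.50 ± 0.87 at 6 h and -0.78 ± 0.98 at 12 h, with errors larger than the differences. RPLP2, the other acidic stalk protein, was at 78.0, 82.5 and 25.8 untreated, 34.7, 44.4 and 50.95 at 6 h and 74.5 and 39.7 at 12 h. Its pairs at 6 h differed by -1.17, -0.89 and 0.98, so they had no common direction, while its stalk partner RPLP1 kept to 0.19 or less in size. RPL27A was at 361.5, 204.4 and 176.4 untreated, 331.4, 199 and 168.4 at 6 h and 480.2 and 142.4 at 12 h. The starts of RPL36A and RPLP2, printed above, carry runs like those of the other members, and whether their low signal reflects the mRNA or the probe set was not tested.

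Probe sets of 1 gene often gave very different signals. Of the 111, 70 had a mean signal over 1000, 9 lay between 100 and 1000 and 32 lay under 100. The naming of a probe set on this platform tells whether its probes are unique, shared by transcripts of a family (_s_at) or open to cross-hybridisation (_x_at). Probe sets ending in plain _at had a median signal of 56.8 and 12 of 40 were over 1000, against 31 of 36 for _s_at (median 5320) and 27 of 35 for _x_at (median 5010). Ribosomal protein genes have many processed pseudogenes, so a signal from the latter kinds can hold sequence of other loci and single members are uncertain. Of 30 members with at least 2 tested probe sets, 18 had probe sets of a single sign at 6 h and 15 at 12 h.

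RPL36, RPS27 and RPS15A had the widest spread between their probe sets. For RPL36 the probe set at a mean signal of 2298 gave a 12 h difference of 0.24 and the other, at 30.04, gave -2.05 ± 1.56. For RPS27 the values were 0.20 at 6486 and -1.65 ± 1.10 at 22.05. RPS15A had 0.22 at 5168, 0.36 ± 0.69 at 43.71 and -1.01 ± 0.71 at 31.80. The differences of opposite sign thus stood on dim probe sets with large errors. Where all probe sets of a gene were bright they were closer: the 5 probe sets of RPL22, an RNA-binding protein of the large subunit, lay between 1508 and 5494 and gave 0.11 to 0.20 at 6 h and 0.004 to 0.24 at 12 h. Bright probe sets could still differ at 12 h. RPL14 gave 0.12 at 3781 and -0.05 at 3519, and RPS9 gave 0.11 at 3734 and 0.51 at 2572.

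**Figure D4:**
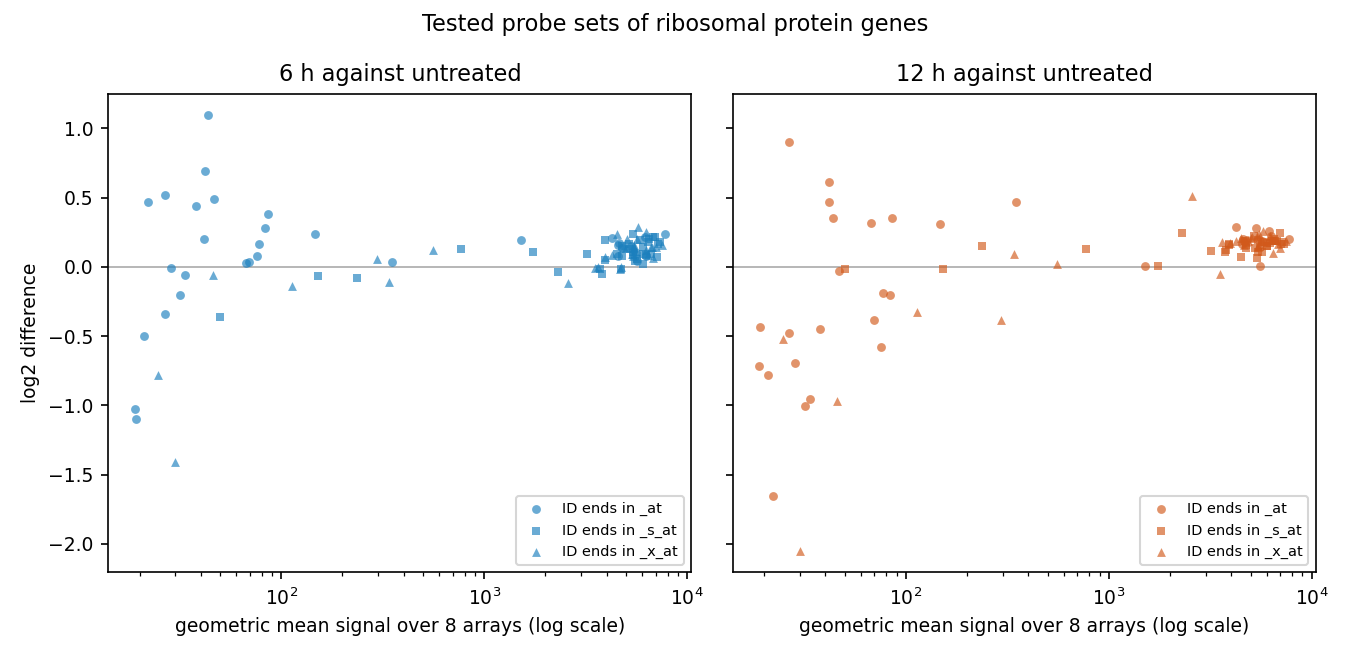
Log2 difference from untreated cells at 6 h (left) and 12 h (right) against the geometric mean signal over the 8 arrays (log axis) for the 103 tested probe sets of ribosomal protein genes, with symbols for the ending of the probe set ID. Probe sets over 1000 gather just above 0 (62 of 70 above 0 at 6 h and 69 of 70 at 12 h), and those under 100 scatter from -1.41 to 1.10 at 6 h and down to -2.05 at 12 h.

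Bright probe sets of other genes were also more often above 0 than below, with shares that depended on the bound in signal and on the block. Over a mean signal of 3000, 60 of 66 ribosomal probe sets were above 0 at 6 h with a median of 0.13, and so were 75.7% of 206 others with a median of 0.07. At 12 h these were 65 of 66 with a median of 0.18 and 90.8% of others with a median of 0.14. With the replicate block they were 61 of 66 (median 0.099) and 71.4% of others (median 0.058). With a lower bound of 1000 the 6 h values differed more, with 62 of 70 ribosomal probe sets above 0 (median 0.12) and 52.2% of 1333 others (median 0.006). At 12 h, 69 of 70 ribosomal probe sets (median 0.18) and 85.1% of the others (median 0.14) were above 0, and with the block 63 of 70 (median 0.099) and 55.5% (median 0.019). Under 100, 6 of 24 ribosomal probe sets were above 0 at 12 h (median -0.44) and 36.5% of 11757 others (median -0.19). With the block these came to 8 of 24 (median -0.23) and 48.2% (median -0.021).

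Members were also set apart by whether a run of C and T began at the first base. Of the 34 genes with such a start 28 were above 0 at 6 h (median 0.14) and 32 at 12 h (median 0.18). Of the 12 without, 11 were above 0 at 6 h (median 0.12) and 12 at 12 h (median 0.17). A run beginning within 10 bases of the start was found for 42 of 46 members (38.4% of genes), so most of these 12 had one nearby. The split therefore depends on the exact start position. The difference between these sets was not tested.

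Paralogues and -like genes, which encode variants of ribosomal proteins, were fewer and dimmer. Of 8, 6 were tested, 3 of them above 0 at 6 h (median 0.012) and 5 at 12 h (median 0.17), or 3 with a median of -0.015 at 12 h with the block. RPL22L1, the paralogue of RPL22, was at 658.1, 348.6 and 677.7 untreated, 501.9, 617.6 and 619.2 at 6 h and 742.8 and 557.2 at 12 h, with a 12 h difference of 0.26 ± 0.32. RPS27L, a paralogue of RPS27 and a known p53 target gene, was at 2395, 2081 and 2808 untreated, 2383, 2206 and 2661 at 6 h and 2388 and 2602 at 12 h. Its differences were 0 ± 0.21 and 0.05 ± 0.24. RPL10L, a dim paralogue with signals of 31.07 to 151.5, had the lowest 6 h and 12 h differences of the 6 (-0.87 ± 0.58 and -0.48 ± 0.65), while RPL26L1 differed by 0.11 ± 0.29 at 6 h and RPL7L1 by 0.20 ± 0.24 at 12 h. FAU, a ribosomal protein gene outside the naming rule, differed by -0.12 ± 0.30 at 6 h and 0.03 ± 0.34 at 12 h.

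Translation factors and other mRNAs with TOP starts had 12 of 19 tested genes above 0 at 6 h (median 0.034) and 18 of 19 at 12 h (median 0.13), which became 12 of 19 with a median of 0.022 in the blocked fit. NPM1, a nucleolar chaperone, was at 4445, 4476 and 6383 untreated, 5171, 5780 and 6801 at 6 h and 5355 and 6456 at 12 h, a difference of 0.23 ± 0.22 at 6 h. EEF1A1, the factor that brings aminoacyl-tRNA to the ribosome, differed by 0.16 ± 0.22 at 6 h and 0.13 ± 0.24 at 12 h. Like the members, both were highest on replicate 3. HNRNPA1, a splicing factor, differed by -0.24 ± 0.29 at 6 h. At 12 h the initiation factor genes EIF4B and EIF3M differed by 0.30 ± 0.24 and -0.03 ± 0.27.

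Genes that act elsewhere in ribosome production were described in the same way. RNA polymerase I and its factors, which transcribe ribosomal RNA, had 7 of 15 above 0 at 6 h (median -0.07) and 10 of 15 at 12 h (median 0.09), or 7 of 15 with a median of -0.060 at 12 h with the block. TAF1D differed by 0.23 ± 0.30 and 0.49 ± 0.34 and POLR1G by -0.23 ± 0.29 and -0.36 ± 0.33 at 6 h and 12 h. Ribosome assembly factors had 25 of 42 above 0 at 6 h (median 0.047) and 32 of 42 at 12 h (median 0.11, or -0.016 with the block). RRP1, a factor of large subunit assembly, had the smallest p among these at 6 h (0.78 ± 0.42, limma unadjusted p = 0.0832, adjusted p = 0.9999). TSR3 differed by -0.64 ± 0.38 and -0.47 ± 0.42, and BMS1, a GTPase of small subunit assembly, by 0.57 ± 0.36 at 12 h. Mitochondrial ribosomal proteins, a separate set encoded in the nucleus, had 33 of 72 above 0 at 6 h (median -0.023) and 53 of 72 at 12 h (median 0.10, or -0.07 with the block). Among them MRPS27 (0.38 ± 0.28) and MRPL28 (-0.47 ± 0.31) had the smallest p in each direction at 6 h, and MRPL49 (0.37 ± 0.27) and MRPL2 (-0.46 ± 0.38) at 12 h.

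Regulators of ribosomal protein mRNA had 10 of 14 above 0 at 6 h (median 0.11) and 11 of 14 at 12 h (median 0.20), or 12 of 14 with a median of 0.091 at 12 h with the block. LARP1, the protein that binds TOP sequences, was at 1068, 862.4 and 1237 untreated, 1647, 1152 and 1192 at 6 h and 1628 and 1277 at 12 h. It was above the untreated array in replicates 1 and 2 at 6 h and in both pairs at 12 h, with differences of 0.33 ± 0.24 and 0.47 ± 0.27 and a smallest p over the list of 0.11 at 12 h (adjusted p = 0.9999 in limma). RPTOR, a subunit of the mTOR complex, differed by -0.53 ± 0.65 at 6 h. MTOR differed by -0.10 ± 0.53 and 0.54 ± 0.59, the latter becoming 0.012 with the block, and MYC, which raises transcription of ribosome genes, by 0.20 ± 0.26 and -0.09 ± 0.29. Across these lists limma called 0 genes at an adjusted p under 0.05 in any comparison.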

How the data were processed

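Biotin-labelled cRNA of 8 samples was measured on 1 Affymetrix 3′ array each. The authors deposited probe-set intensity (linear scale) from MAS5, per the submitters' processing notes; its version is not given in the sources used here. The number of arrays limits the precision. The labels do not say that replicates are separate cultures, so p-values describe the spread among these arrays, possibly technical.

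Of 54675 probe sets, 62 were controls and left out, 41091 had 1 symbol, 1801 had several and 11721 were not listed in the platform annotation. A floor at the 10th percentile of the table (2.386), which understates differences of dim genes, was set before log2 was taken. Each gene was represented by its brightest probe set with 1 symbol. The 12063 genes with a mean log2 above the median of all probe sets (4.216) were tested, all 52 members among them. No 2 arrays shared more than 1 identical value.

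Testing used limma 3.58.1 in R 4.3.3 (lmFit and eBayes, with a trend in the variance), the 3 groups in 1 fit, two-sided p-values and Benjamini-Hochberg adjustment over all genes tested (threshold 0.05). The code was tested on simulated data. Lists were described by counts and medians, with no test. Members and lists were chosen with earlier results of these data known. Named members were the 4 largest and 4 smallest differences of each comparison, the 5 highest and 5 lowest in untreated cells, the 4 most and 4 least variable relative to the members, the 3 with the widest spread between probe sets, and a fixed set with well known roles. In other lists, apart from the cell type markers, the gene of smallest p in each direction was named for the comparisons with untreated cells. RPL22L1, RPS27L, EEF1A1, RPS12 and MTOR were added after their values were seen.

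Deviations of same-numbered arrays from their group means correlated at 0.108 to 0.637 in 7 pairs, against -0.576 to 0.333 in 14 others. Subtracting group means lowers the correlations between other numbers, and both 12 h arrays deviate equally in opposite directions. Part of this contrast was thus fixed in advance, and the ranges overlapped. The numbers were treated as pairing the arrays, although the labels do not say what a number marks. Fits were repeated with the number as a block. Other repeats used quantile normalization, centring on the array median, another floor or a pseudocount of 32, other filters, other ways to combine probe sets, no variance trend, array weights, the compared groups alone, and each array or both replicate 2 arrays left out.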

Additional observations from a re-analysis of the deposited data

How the results depend on the processing

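In each of 22 other settings limma called 0 genes in all 3 comparisons. The member median at 6 h (0.14) ran from 0.011 (quantile normalization) to 0.24 (array weights), and with 1 array left out from -0.010 to 0.29. At 12 h (0.19) it ran from 0.021 upward, and from 0.036 to 0.34 with 1 array left out. For 12 h against 6 h (0.041) the lowest value was -0.033, and -0.095 to 0.185 with 1 array left out. Fits with 1 array left out had no block, so they also hold differences between replicate numbers unless both groups kept the same numbers. The main fits with 12 h arrays hold them too, since replicate 2 has no 12 h array. With equal numbers, 12 h against untreated gave 0.091 (without untreated replicate 2). For 12 h against 6 h this was -0.020 (without 6 h replicate 2). Centring each array on its median gave 0.77 for 12 h against untreated and 0.63 for 12 h against 6 h. The median of all genes moved with it, to 0.66 and 0.65, so the members minus all genes stayed at 0.10 and -0.02. Members minus all genes came to 0.117 at 6 h, and to 0.003, -0.042 and -0.045 in the 3 comparisons after quantile normalization. Quantile normalization removes most of a shift shared by the brightest genes.

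With the replicate number as a block the medians were 0.14, 0.10 and -0.033, the counts above 0 were 45, 48 and 16, and 0 genes were called, with 493, 262 and 297 at an unadjusted p under 0.05 against 79, 74 and 88 without it. The block on quantile-normalized values, chosen after seeing the data, gave 0.011, 0.024 and 0.004. Averaging the probe sets of a gene gave 0.117 at 12 h with 34 of 52 above 0. Of 669 values of the 32 named members in other settings, 63, 61 and 133 had the other sign, and 0 were called. With 2 or 3 arrays per group, differences of the size seen here (0.14 to 0.19) were under the median standard error without a block (0.23 and 0.26). With the block, the median standard error of a member was 0.081 at 6 h and 0.095 at 12 h, under the medians of 0.14 and 0.10. These are errors of single members, which vary together, and not errors of the medians. No member passed adjustment in the blocked fit either.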
